A study of Mus musculus with 6 samples.

Results

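The enzymes that modify foreign compounds were examined as 4 gene families in intestinal tumor organoids: the cytochrome P450 genes (Cyp), the glutathione S-transferase genes (Gst), the UDP-glucuronosyltransferase genes (Ugt) and the sulfotransferase genes (Sult). Members were chosen by symbol and by level. The symbol had to begin with Cyp and a digit, Ugt1, Ugt2, Gsta, Gstm, Gstp, Gstt, Gsto, or Sult and a digit, and the gene had to reach 4 rpkm (read counts scaled to gene length and to the mapped reads of the library) in at least 1 of the 6 libraries. Of 173 rows that met the symbol rule, 21 with the mark of a pseudogene in the symbol were left out. Of the 152 rows that remained, 44 reached the level: 20 of 97 Cyp genes, 17 of 19 Gst genes, 4 of 18 Ugt genes and 3 of 18 Sult genes. They stand among 10042 genes that reached the same level, of 36172 listed.

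A foreign compound is usually made reactive first, often by a cytochrome P450, which adds an oxygen atom. A transferase then attaches glutathione, glucuronic acid or sulfate, which makes the product more soluble, and transporters carry it out of the cell. The epithelium of the small intestine is known for such enzymes because it meets food-borne compounds before the liver does. The same families also act on the body's own compounds, such as fatty acids, sterols, bile acids, retinoids, bilirubin and steroid hormones.

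The study asked how mutant p53 alters intestinal tumors that lack Apc. All 6 organoid lines came from small-intestinal tumors of C57BL/6 mice aged 15 to 20 weeks with the truncating Apc(D716) allele, whose wild-type Apc copy had been lost. The groups differed in Trp53, the gene of the tumor suppressor p53, and each held 2 organoid lines from separate mice. Trp53+/+ organoids, labelled p53(+/+), kept wild-type p53. Trp53flox/flox organoids, labelled p53(flox/flox), carried on both copies a R270H missense allele that was still silenced by a loxP-flanked stop cassette, so that the allele acts as a null. Trp53R270H/R270H organoids, labelled p53(M/M), carried the same allele on both copies after the cassette had been removed by tamoxifen-activated Cre, which the villin promoter drives in intestinal epithelium. Organoids grow without the stroma and the contents of the gut, and each library is 1 line, so that p-values measure the spread between 2 lines per genotype.

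Trp53 itself matched the labels. Its level was 75.9 and 74.3 rpkm in Trp53+/+, 1.73 and 2.48 rpkm in Trp53flox/flox, and 72.8 and 82.7 rpkm in Trp53R270H/R270H libraries. All 8 markers of intestinal epithelium passed the filter, and none of 7 fibroblast markers did. Of the former, Krt8 and Krt19 were higher in Trp53flox/flox, and Krt19 was lower in Trp53R270H/R270H, than in Trp53+/+. Low levels of markers of other cells were also listed. Of 5 endothelial markers 2 passed, and of these Cdh5 was called lower in both mutants, while Pecam1, Kdr and Emcn were at 1 rpkm in all libraries. Of 7 leukocyte markers 2 passed, Cd68 and Lyz2, without a call, and Ptprc was at 1 rpkm in all. The endothelial markers summed to 15.9 to 16.3 rpkm in Trp53+/+, 5.0 to 27.7 rpkm in Trp53flox/flox and 5.13 to 5.20 rpkm in Trp53R270H/R270H, and the leukocyte markers to 15.9 to 16.2, 8.06 to 21.8 and 8.22 to 8.41 rpkm. In both lists the highest sum was that of Trp53flox/flox replicate 2. Of 5 hepatocyte markers 1 passed, Alb, and it was called in every comparison. Alb stood at 3.45 and 5.07 rpkm in Trp53+/+, 1.00 and 1.09 rpkm in Trp53flox/flox, and 13.4 and 8.51 rpkm in Trp53R270H/R270H. Of 5 enteroendocrine markers 1 passed, Chgb, called lower in both mutants. The part of all these markers in the results was not tested. The 2 Trp53flox/flox libraries differed most from each other, with a median standard deviation of 0.25 on the log2 scale over the genes tested, against 0.05 in Trp53+/+ and 0.06 in Trp53R270H/R270H. Estimated depth was 44.2 to 47.4 M reads in 5 libraries and could not be settled in Trp53flox/flox 1. In such bulk samples, fewer cells of a type and less RNA per cell cannot be told apart. Tests were made with limma on log2(rpkm+1) over the 10042 genes, and a gene was called at a Benjamini-Hochberg adjusted p under 0.05. An exact permutation test of 2 libraries against 2 was not used, since it cannot reach 0.05.

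Levels spanned a wide range. Gst genes made up most of the summed level, with 1659 and 2011 rpkm in Trp53+/+, 954 and 1029 rpkm in Trp53flox/flox and 949 and 973 rpkm in Trp53R270H/R270H libraries. The Cyp sum was 339 and 416, then 206 and 181, then 252 and 242 rpkm in the same order. The Ugt sum was 208 and 219, then 77.3 and 70.9, then 157 and 151 rpkm. The Sult sum was 14.0 and 19.8, then 12.6 and 10.1, then 6.51 and 7.59 rpkm. In every family both Trp53+/+ libraries lay above the other 4 libraries. For Sult the filter favoured this order, since 2 of the 3 genes, Sult1b1 and Sult1c2, passed it only through Trp53+/+ libraries. The order of the mutants differed by family: Trp53flox/flox libraries were the lowest for Cyp and Ugt, Trp53R270H/R270H libraries for Sult, and for Gst the mutants overlapped. Single genes weighed heavily in these sums. Cyp51 made up 36.0% of the Cyp sum over the 6 libraries, and without it the Cyp mean of Trp53flox/flox was 34.9% instead of 51.3% of the Trp53+/+ mean. Sult2b1 made up 57.5% of the Sult sum, and without it both mutants stood at the lowest values that the table allows or just above, 2.31 and 2.00 rpkm against 10.7 rpkm for 2 genes. Those 2 genes were Sult1b1 and Sult1c2, so the filter favoured this difference.

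**Figure D1:**
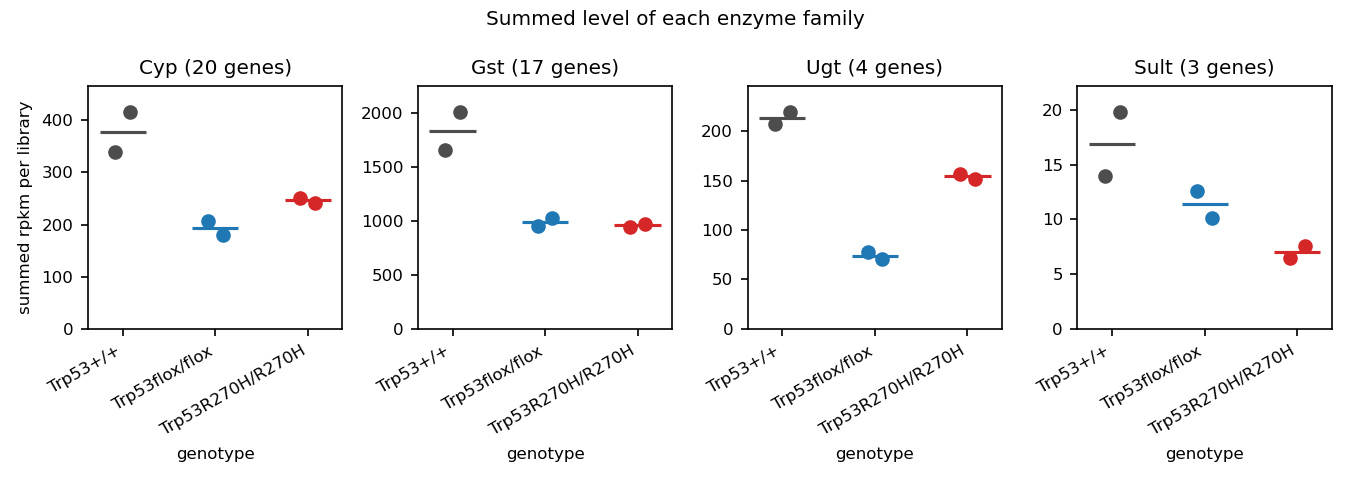
Summed level of each family in rpkm (y axis, from 0) against genotype (x axis); each point is 1 library and the line is the mean of 2. Both Trp53+/+ points lie above the other 4 points in each family, and the Ugt points of Trp53R270H/R270H (157 and 151 rpkm) lie between the other genotypes. Of the 3 Sult genes, 2 passed the filter only through Trp53+/+ libraries.

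Against Trp53+/+ organoids, 4 of the 44 genes rose in Trp53R270H/R270H organoids (Cyp27a1, Cyp4v3, Gstm7 and Ugt1a1), 10 fell and 30 were not called. Over all genes tested, 5.86% were called higher and 6.36% lower in this comparison, so that 4 of 44 (9.09%) is close to the background and 10 of 44 (22.7%) is above it. Of the 4 genes that rose, Cyp4v3 passed the filter only through Trp53R270H/R270H libraries, so the filter favoured its rise. The median log2 fold change of the 44 genes was -0.58, against 0.03 for all genes tested. Against the same controls, 20 of the 44 genes (45.5%) fell in Trp53flox/flox organoids, where 6.9% of all genes were called lower. No gene was called higher by limma, 1 was higher at an unadjusted p under 0.05, and 4.38% of all genes were called higher. The median log2 fold change was -1.09, against -0.02 for all genes tested. The comparisons share the 2 Trp53+/+ libraries. In these libraries 25 of the 44 genes (56.8%) had both values above the other 4, against 17.1% of all genes tested, and no gene had both below. Of these 25, 7 genes (Cyp2b10, Cyp2c66, Cyp2d26, Cyp4f14, Gsta2, Sult1b1 and Sult1c2) passed the filter only through Trp53+/+ libraries, so that at least 1 of their Trp53+/+ values had to lie above the other 4. Among the other 37 of the 44 genes the count was 18 (48.6%), against 15.5% of all genes tested when chosen likewise, and 6 (16.2%, against 5.6%) were called lower in Trp53R270H/R270H and 15 (40.5%, against 6.12%) in Trp53flox/flox. The median log2 fold changes of these 37 genes were -0.41 in Trp53R270H/R270H and -0.88 in Trp53flox/flox. For all genes tested when chosen likewise they were 0.04 and -0.01. Both Trp53flox/flox values were below the other 4 for 24 of the 44 genes (54.5%), against 22.2% of all genes tested.

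Between the mutants, 11 genes were higher in Trp53R270H/R270H than in Trp53flox/flox organoids (25%, background 13.6%) and 2 were lower (4.55%, background 11.0%). The genes called higher were Cyp27a1, Cyp2c55, Cyp2c65, Cyp4b1, Cyp4f13, Cyp4v3, Gstm5, Gstm6, Gstm7, Ugt1a1 and Ugt2b34, and those called lower were Gsto1 and Sult2b1. In all, 24 of the 44 genes were called in at least 1 comparison. Without regard to calls, both Trp53R270H/R270H values lay below both Trp53+/+ values in 35 of the 44 genes (37.6% of all genes tested) and above them in 9 (44.2%). Both Trp53flox/flox values lay below those of Trp53+/+ in 32 genes (33.9%) and above in 2 (30.6%), and Trp53R270H/R270H lay above Trp53flox/flox in 26 (36.8%) and below in 5 (31.2%). The 35 and the 32 genes include all 7 that passed the filter only through Trp53+/+ libraries. The 11 genes called higher, and the 9 and the 26, include Cyp4v3, which passed it only through Trp53R270H/R270H libraries.

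**Figure D2:**
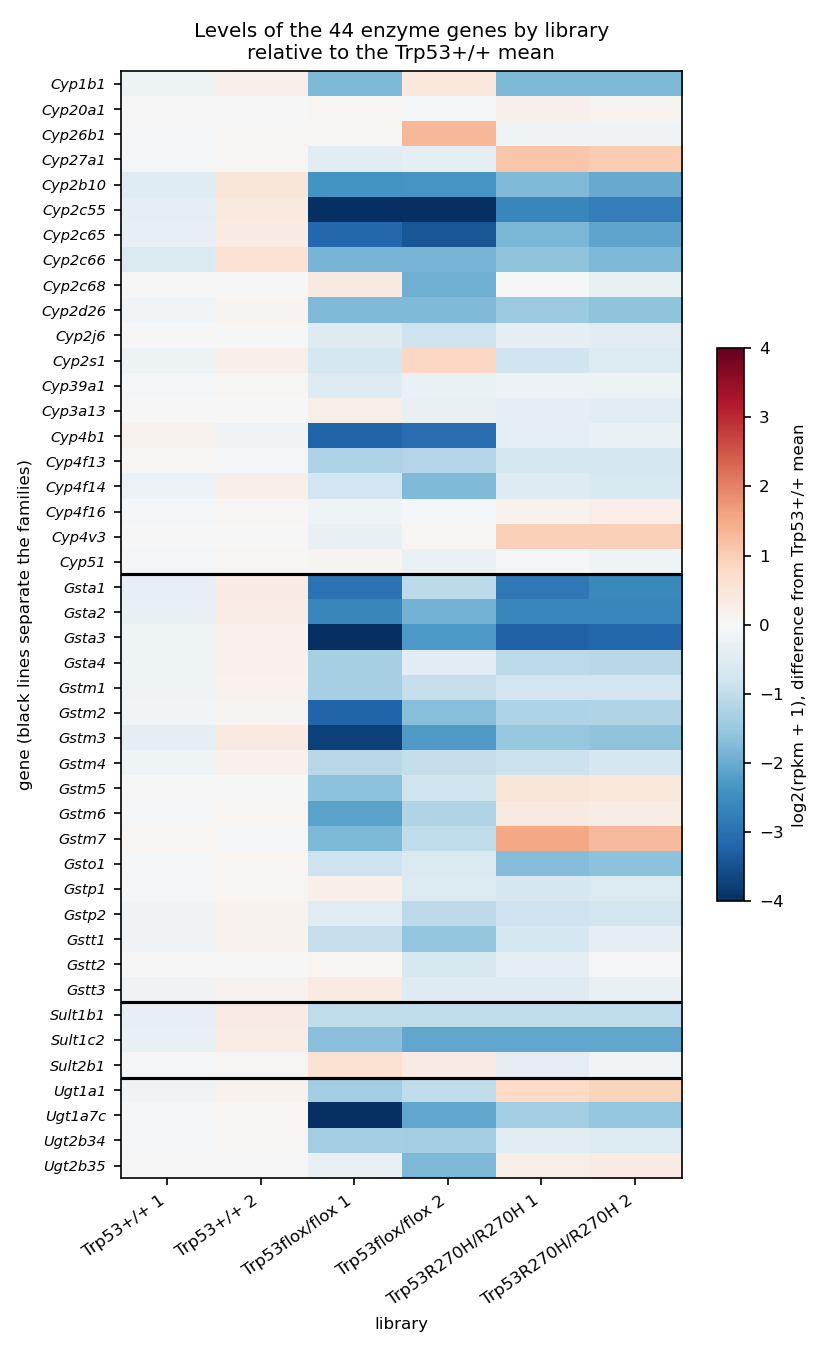
Level of each of the 44 genes (rows, by family) in each of the 6 libraries (columns) as the difference in log2(rpkm+1) from the Trp53+/+ mean, with colours saturated at 4. The Trp53flox/flox columns are blue for most rows, with differences between the 2 lines in the Gsta and Gstm rows, and the deepest red of the Trp53R270H/R270H columns is that of Cyp27a1, Cyp4v3, Gstm7 and Ugt1a1.

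These counts rest on few libraries. When any 1 Trp53+/+ library or Trp53R270H/R270H replicate 1 was left out, no gene of the 10042 was called between those genotypes, and without Trp53R270H/R270H replicate 2 none of the 44 was. The genes called lower in Trp53flox/flox numbered 1 or 2 without any 1 of these 4 libraries, against 0.0797% to 0.289% of all genes. They numbered 35 or 34 without Trp53flox/flox replicate 1 or 2, while 21.3% or 36.9% of all genes were then called lower. The wide spread of the Trp53flox/flox lines also entered the test of the other genotypes. In a fit of the 4 Trp53+/+ and Trp53R270H/R270H libraries alone, 7 of the 44 genes were higher and 28 lower in Trp53R270H/R270H, while 31.2% of all genes were called higher and 25.7% lower. The 28 included all 4 Gsta genes, Gstm1, Gstm2, Gstm3, Gstm4, both Gstp genes and Ugt1a7c. The 3 genes added on the higher side were Gstm5, Gstm6 and Ugt2b35.

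Among the cytochrome P450 genes, those of the Cyp2 group known for drugs and other foreign compounds were among those that fell most, with 4 of 7 called lower in Trp53R270H/R270H and 5 of 7 in Trp53flox/flox. Of all genes tested, 6.36% and 6.9% were called lower in the same order. Cyp2b10 and Cyp2d26, called in both mutants, and Cyp2c66, called in Trp53flox/flox, passed the filter only through Trp53+/+ libraries, so the filter favoured their fall. The other called genes were the neighbours Cyp2c55 and Cyp2c65, in both mutants, and Cyp2c68 and Cyp2s1 were not called. Of the 7, Cyp2c55, Cyp2c65, Cyp2c66 and Cyp2c68, lie within one cluster on chromosome 19. Cyp2c55, which oxidises arachidonic acid, stood at 61.5 and 108 rpkm in Trp53+/+, 4.24 and 3.74 rpkm in Trp53flox/flox, and 12.6 and 11.0 rpkm in Trp53R270H/R270H libraries. The 3 genotypes did not overlap, and all 3 comparisons were called. Its log2 fold change was -2.69±0.27 (s.e., adjusted p=0.00715) in Trp53R270H/R270H and -4.05±0.27 (adjusted p=0.00423) in Trp53flox/flox, and Trp53R270H/R270H was higher than Trp53flox/flox by 1.36±0.27 (adjusted p=0.0266). Its neighbour Cyp2c65 stood at 16.1 and 26.1, then 1.44 and 1.00, then 5.04 and 3.95 rpkm. The order of the genotypes was that of Cyp2c55, and Cyp2c55 was the member with the most similar profile over the 6 libraries (Pearson r=0.996, given as a description). Both mutants were called lower, with log2 fold changes of -1.98±0.26 in Trp53R270H/R270H and -3.28±0.26 in Trp53flox/flox. The next gene, Cyp2c66, stood at 3.88 and 9.88 rpkm in Trp53+/+, 1.00 rpkm in both Trp53flox/flox libraries and 1.37 and 1.08 rpkm in Trp53R270H/R270H libraries. A value of 1 is the lowest that the table holds, so the mean of Trp53+/+ was at least 6.88-fold higher than that of Trp53flox/flox, which was called (adjusted p=0.0426). The same gene was not called in Trp53R270H/R270H (adjusted p=0.0501) although the ranges lay apart. Cyp2c68 departed from its neighbours, with 6.84 and 7.0, then 9.13 and 1.03, then 6.56 and 5.48 rpkm, and its Trp53flox/flox lines lay on either side of all other libraries. Of its 50-base words, 43.3% also occur in transcripts of other genes.

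The bases just before the start of Cyp2c65 and Cyp2c66 are shown because these genes are neighbours and share sequence. Each stretch holds the 180 bases before the RefSeq start site on GRCm38.p6, plus strand, chr19:39060826-39061005 and chr19:39113718-39113897, and capitals mark a TATAAA match.
Cyp2c65: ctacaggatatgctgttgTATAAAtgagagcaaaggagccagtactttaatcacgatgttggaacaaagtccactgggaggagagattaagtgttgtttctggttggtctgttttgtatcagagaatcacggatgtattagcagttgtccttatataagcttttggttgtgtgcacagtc
Cyp2c66: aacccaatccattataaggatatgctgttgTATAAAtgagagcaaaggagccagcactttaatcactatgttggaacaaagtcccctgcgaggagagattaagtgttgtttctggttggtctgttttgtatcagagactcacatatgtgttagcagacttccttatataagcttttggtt
In a global alignment 154 of the 180 bases were identical (85.6%). The transcripts are also alike, with 24.0% of the 50-base words of Cyp2c66 found in Cyp2c65 transcripts too, so reads of one gene could have been counted for the other.

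The other 2 called members of this group gave the same order. Cyp2b10, a gene known to be induced through the receptor CAR, stood at 6.39 and 13.7 rpkm in Trp53+/+, 1.00 and 1.02 rpkm in Trp53flox/flox and 2.08 and 1.59 rpkm in Trp53R270H/R270H libraries. It fell by 2.38±0.34 in Trp53flox/flox (adjusted p=0.0226) and by 1.89±0.34 in Trp53R270H/R270H (adjusted p=0.0305) on the log2 scale. Cyp2d26 stood at 5.34 and 6.34, then 1.00 and 1.00, then 1.46 and 1.26 rpkm, and was called lower in both mutants. In both genes the mutants lay well below Trp53+/+, and the difference between the mutants was not called. Since both passed the filter only through Trp53+/+ libraries, the filter favoured lower values in the mutants.

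The P450 genes known for fatty acids and eicosanoids were more varied. Cyp4b1 stood at 39.0 and 31.7 rpkm in Trp53+/+, 2.96 and 3.41 rpkm in Trp53flox/flox, and 26.3 and 28.9 rpkm in Trp53R270H/R270H libraries. Thus it was low in the lines without p53 and nearer to the control level in the lines with the mutant protein. The log2 fold change against Trp53+/+ was -3.11±0.14 in Trp53flox/flox (adjusted p=0.00225) and -0.34±0.14 in Trp53R270H/R270H (adjusted p=0.177), and the mutants differed by 2.78±0.14 (adjusted p=0.00184). This difference was the one member call of 47 that was kept under all 18 alternatives. Cyp4f13 stood at 11.1 and 10.1, then 3.93 and 4.16, then 6.09 and 6.07 rpkm, and all 3 comparisons were called. Cyp2j6, an epoxygenase of arachidonic acid, stood at 23.0 and 23.3, then 15.9 and 12.5, then 17.5 and 17.2 rpkm, and was called lower in Trp53flox/flox. Cyp4v3, whose human counterpart hydroxylates fatty acids, stood at 2.23 and 2.24, then 1.61 and 2.35, then 5.32 and 5.30 rpkm. It rose in Trp53R270H/R270H against both other genotypes, by 0.96±0.17 (adjusted p=0.0279) and 1.09±0.17 (adjusted p=0.0151) on the log2 scale. This gene passed the filter only through Trp53R270H/R270H libraries, so the filter favoured its rise in both comparisons.

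Of the 3 genes of sterol and bile acid metabolism, 1 rose. Cyp27a1, the mitochondrial sterol hydroxylase of bile acid synthesis, stood at 8.71 and 9.44 rpkm in Trp53+/+, 6.46 and 6.86 rpkm in Trp53flox/flox, and 20.8 and 19.3 rpkm in Trp53R270H/R270H libraries. Both Trp53R270H/R270H lines lay above all others, at 221% of the Trp53+/+ mean, with a log2 fold change of 1.06±0.11 (adjusted p=0.00713). Cyp51, the lanosterol demethylase of cholesterol synthesis and the P450 gene with the highest level, stood at 99.0 and 107, then 111 and 84.7, then 96.5 and 91.0 rpkm, and no comparison was called. Its Trp53flox/flox lines enclosed the Trp53+/+ values.

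The other 8 Cyp members were not called in any comparison. They were Cyp1b1, Cyp20a1, Cyp26b1, Cyp2s1, Cyp39a1, Cyp3a13, Cyp4f14 and Cyp4f16. In 3 of them the Trp53flox/flox lines were far apart. Cyp26b1, which breaks down retinoic acid, passed the filter through Trp53flox/flox replicate 2 only, at 4.50 rpkm against 1.00 to 1.28 rpkm in the other 5 libraries. Cyp2s1 reached 5.81 rpkm in the same line and 1.21 to 3.39 rpkm elsewhere. Cyp1b1, which acts on aromatic compounds, stood at 5.11 and 6.95 rpkm in Trp53+/+, 1.00 and 8.37 rpkm in Trp53flox/flox, and 1.02 and 1.00 rpkm in Trp53R270H/R270H libraries. Cyp26b1 and, of the Sult family, Sult1b1 (4.06 rpkm at most) were the members just inside the filter. Ugt1a6a (3.67 rpkm at most) and Sult1d1 (3.58 rpkm at most) lay just outside it.

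**Figure D3:**
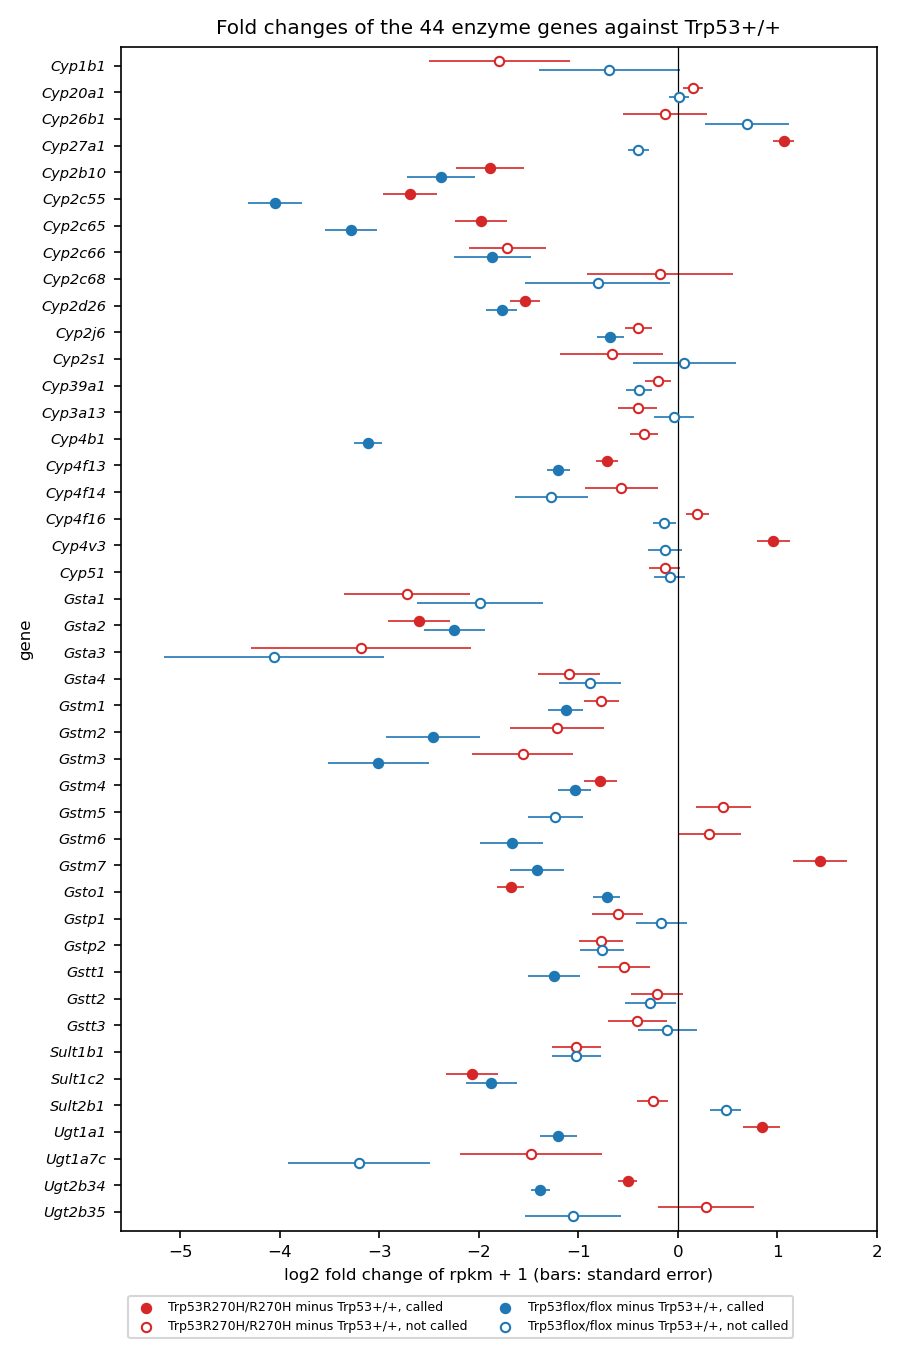
Log2 fold change of rpkm+1 (x axis, bars are standard errors from limma) of each of the 44 genes (y axis) in Trp53R270H/R270H (red) and Trp53flox/flox (blue) against the same 2 Trp53+/+ libraries; filled points were called. Cyp4b1 (-3.11 and -0.34) and the genes Gstm5, Gstm6, Gstm7 and Ugt1a1 lie far apart in the 2 mutants, and the open points with long bars, such as Gsta3, are genes whose Trp53flox/flox lines differed.

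The glutathione S-transferases are grouped in classes that act on different electrophiles. The 7 mu-class genes lie side by side within 149 kb on chromosome 3, and in Trp53flox/flox organoids all 7 stood below Trp53+/+, with 6 called and Gstm5 at an adjusted p of 0.051. Gstm1, the most abundant of them, stood at 285 and 347 rpkm in Trp53+/+, 126 and 164 rpkm in Trp53flox/flox, and 183 and 186 rpkm in Trp53R270H/R270H libraries. It was called lower in Trp53flox/flox (log2 fold change -1.13±0.17, adjusted p=0.0264), and in Trp53R270H/R270H its value was -0.77±0.17 with an adjusted p of 0.0512. Gstm2 (43.97 and 52.3, then 4.31 and 13.9, then 19.8 and 20.4 rpkm) and Gstm3 (59.3 and 96.6, then 4.75 and 14.8, then 25.9 and 24.2 rpkm) were also called lower in Trp53flox/flox. In both genes the mutants lay below Trp53+/+ without overlap, and Trp53flox/flox replicate 1 was the lowest library. Gstm4 stood at 12.6 and 16.2, then 6.02 and 6.94, then 7.37 and 8.53 rpkm, and fell in both mutants.

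In Trp53R270H/R270H organoids the first 3 genes of the row stood above Trp53+/+ and the last 4 below. Gstm7 stood at 24.2 and 21.4 rpkm in Trp53+/+, 5.78 and 10.7 rpkm in Trp53flox/flox, and 68.3 and 57.9 rpkm in Trp53R270H/R270H libraries. With Ugt1a1 it was the gene with opposite calls in the mutants. It rose by 1.43±0.27 in Trp53R270H/R270H (adjusted p=0.0349) and fell by 1.42±0.27 in Trp53flox/flox (adjusted p=0.037) on the log2 scale. The difference between the mutants was 2.85±0.27 (adjusted p=0.00521). Gstm5 stood at 53.5 and 55.2, then 16.6 and 30.6, then 76.2 and 73.9 rpkm, and Gstm6 at 16.98 and 19.4, then 3.32 and 7.37, then 23.5 and 22.3 rpkm. Both were at 138% and 126% of the Trp53+/+ mean in Trp53R270H/R270H, without a call, and both were higher than in Trp53flox/flox, by 1.69±0.28 (adjusted p=0.0172) and 1.99±0.31 (adjusted p=0.0162). Gstm3, the fourth gene of the row, was at 32.1% of the Trp53+/+ mean. For Gstm1, Gstm2, Gstm3 and Gstm6, between 9.36% (Gstm2) and 28.8% (Gstm3) of the 50-base words also occur in transcripts of other genes. Other Gstm genes are among those, so reads could have been shared among these genes. No such word of Gstm4, Gstm5 or Gstm7 occurs in another gene.

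The stretches before Gstm5, the first gene of the row, and Gstm3, the first gene below Trp53+/+ in Trp53R270H/R270H, are shown since they lie on the 2 sides of this step. Each holds 180 bases before the RefSeq start site on GRCm38.p6, chr3:107895674-107895853 on the plus strand and chr3:107969175-107969354 on the minus strand. Capitals mark a match to the antioxidant response element core TGACNNNGC or the xenobiotic response element core GCGTG on either strand, and TGACCACGC holds a match to both.
Gstm5: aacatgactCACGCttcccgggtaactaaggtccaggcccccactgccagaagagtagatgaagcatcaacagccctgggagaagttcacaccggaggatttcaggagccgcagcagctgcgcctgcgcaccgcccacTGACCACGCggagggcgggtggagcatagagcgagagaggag
Gstm3: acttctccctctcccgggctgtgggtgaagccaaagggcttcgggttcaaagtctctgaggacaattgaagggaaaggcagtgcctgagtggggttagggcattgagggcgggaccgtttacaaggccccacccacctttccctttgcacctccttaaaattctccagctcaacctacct
Gstm5 held 3 matches in this stretch and Gstm3 none, and 95 of 180 bases were identical in a global alignment (52.8%). In windows of 250 bases before to 50 after the start, TGACNNNGC occurred for Gstm5 and in 1 window of Gstm7, both above Trp53+/+. GCGTG occurred for Gstm5 and in both windows of Gstm1, which stood below Trp53+/+. Gstm6, above Trp53+/+, and Gstm2, Gstm3 and Gstm4, below it, held no match to either core. The part of these matches in the step along the row was not tested. A match is a string of letters and does not show that a factor binds.

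**Figure D4:**
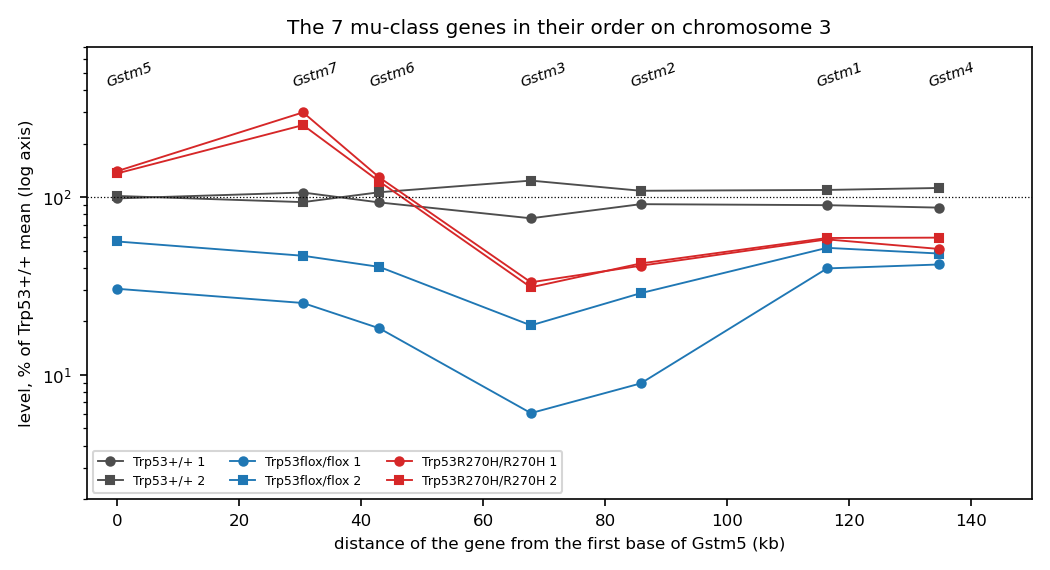
Level of the 7 mu-class genes as a percentage of the Trp53+/+ mean (y axis, log scale) against the distance of the gene from the first base of Gstm5 in kb (x axis); each line is 1 library. Both Trp53R270H/R270H lines are above 100% at Gstm5, Gstm7 and Gstm6 and below it from Gstm3 on, and both Trp53flox/flox lines are below 100% at all 7 genes.

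The alpha class, known for the removal of lipid peroxidation products, stood below Trp53+/+ in both mutants. Gsta4, which acts on hydroxynonenal, stood at 263 and 338 rpkm in Trp53+/+, 118 and 220 rpkm in Trp53flox/flox, and 142 and 136 rpkm in Trp53R270H/R270H libraries, and was not called. Gsta3 stood at 100.03 and 128 rpkm in Trp53+/+, 1.00 and 22.3 rpkm in Trp53flox/flox, and 11.2 and 11.8 rpkm in Trp53R270H/R270H libraries. The ranges lay apart from Trp53+/+ in both mutants, at 10.3% and 10.1% of its mean, but with a standard error of 1.11 on the log2 scale no comparison was called (adjusted p=0.0746 and 0.122). Gsta1 stood at 67.7 and 105, then 10.1 and 40.7, then 10.8 and 13.2 rpkm, again without a call (adjusted p=0.0988 and 0.0527). In the fit of the 4 Trp53+/+ and Trp53R270H/R270H libraries alone, the log2 fold changes of Gsta3 (-3.19±0.12), Gsta1 (-2.72±0.22) and Gsta4 (-1.09±0.13) were called. Gsta2 stood at 8.97 and 13.8, then 1.00 and 2.28, then 1.00 and 1.00 rpkm and was called lower in both mutants, and the mean of Trp53+/+ was at least 11.4-fold higher than that of Trp53R270H/R270H. This gene passed the filter only through Trp53+/+ libraries, so the filter favoured lower values in the mutants. Gsta1 and Gsta2 are hard to separate by reads, since 89.7% and 64.2% of their 50-base words occur in transcripts of other genes.

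Gsto1, which reduces dehydroascorbate and arsenic compounds, stood at 291 and 328 rpkm in Trp53+/+, 172 and 205 rpkm in Trp53flox/flox, and 92.5 and 99.0 rpkm in Trp53R270H/R270H libraries. It was the one member of the 44 that was called lower in all 3 comparisons, with log2 fold changes of -1.68±0.14 (adjusted p=0.00441) and -0.71±0.14 (adjusted p=0.0363) against Trp53+/+ and -0.97±0.14 (adjusted p=0.0127) between the mutants. Gstp1, the pi-class gene with the highest level of all 44, stood at 299 and 334, then 365 and 218, then 199 and 217 rpkm and was not called. Its near copy Gstp2 stood at 77.2 and 92.4, then 61.2 and 39.9, then 47.6 and 50.3 rpkm, and 62.3% of the 50-base words of Gstp1 are shared with other genes. Of the theta class, Gstt1 fell in Trp53flox/flox (16.6 and 20.5, then 9.32 and 5.54, then 11.1 and 13.8 rpkm, adjusted p=0.0426), and Gstt2 and Gstt3 were not called.

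Of the 4 Ugt genes, all stood lower in Trp53flox/flox than in Trp53+/+ and all stood higher in Trp53R270H/R270H than in Trp53flox/flox without overlap. Ugt2b34, the most abundant, stood at 143 and 149 rpkm in Trp53+/+, 56.2 and 54.6 rpkm in Trp53flox/flox, and 106 and 99.3 rpkm in Trp53R270H/R270H libraries. Each genotype held its own range, and all 3 comparisons were called, with log2 fold changes of -1.38±0.10 (adjusted p=0.00497), -0.50±0.10 (adjusted p=0.0352) and 0.88±0.10 (adjusted p=0.00701) for Trp53flox/flox, Trp53R270H/R270H and the difference between them. Ugt1a1, the enzyme that conjugates bilirubin, stood at 4.11 and 5.19, then 1.16 and 1.78, then 8.75 and 9.50 rpkm. It rose in Trp53R270H/R270H to 196% of the Trp53+/+ mean (log2 fold change 0.85±0.19, adjusted p=0.0469) and fell in Trp53flox/flox (-1.20±0.19, adjusted p=0.0264). Ugt1a7c, from another first exon of the same locus on chromosome 1, stood at 37.0 and 42.0, then 1.00 and 8.61, then 14.4 and 12.7 rpkm. Its Trp53R270H/R270H values lay below Trp53+/+ where those of Ugt1a1 lay above, and its adjusted p was 0.226 in Trp53R270H/R270H and 0.05 in Trp53flox/flox, without a call. The genes of this locus share their last exons, so that 58.2% and 69.3% of the 50-base words of Ugt1a1 and Ugt1a7c occur in other genes. Ugt2b35 stood at 24.0 and 23.1, then 19.03 and 5.99, then 28.0 and 29.9 rpkm, without a call. It lies on chromosome 5 with Ugt2b34, and the median gene of that chromosome lay 0.29 above Trp53+/+ in Trp53flox/flox replicate 1 (log2 scale).

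The 3 Sult genes were low in all libraries. Sult1c2, which acts on phenols, stood at 5.81 and 9.31 rpkm in Trp53+/+, 1.62 and 1.00 rpkm in Trp53flox/flox and 1.00 rpkm in both Trp53R270H/R270H libraries. It fell in both mutants (adjusted p=0.0206 and 0.013), and its mean in Trp53+/+ was at least 7.56-fold higher than in Trp53R270H/R270H. Sult1b1, a sulfotransferase of phenols and thyroid hormones, stood at 2.25 and 4.06 rpkm in Trp53+/+ and at 1.00 rpkm in the other 4 libraries, without a call. Both Sult1c2 and Sult1b1 passed the filter only through Trp53+/+ libraries, so the filter favoured lower values in the mutants. Sult2b1, which acts on cholesterol, went another way, with 5.92 and 6.44, then 10.02 and 8.10, then 4.51 and 5.59 rpkm. Its Trp53flox/flox values were the highest, and Trp53R270H/R270H was lower than Trp53flox/flox by 0.73±0.16 (adjusted p=0.0313), while neither mutant was called against Trp53+/+.

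The families were compared by their medians. Against Trp53+/+, the median log2 fold changes in Trp53R270H/R270H were -0.40 for Cyp, -0.77 for Gst, -0.11 for Ugt and -1.02 for Sult genes. In Trp53flox/flox they were -0.68, -1.23, -1.29 and -1.02. Between the mutants, Trp53R270H/R270H minus Trp53flox/flox, they were 0.31, 0.26, 1.53 and -0.19, where the median of all genes tested was 0.03. With no pseudocount, which places genes listed at 1 at their bound, the Trp53flox/flox medians were -0.88, -1.27, -1.54 and -1.60, and those of Trp53R270H/R270H -0.45, -0.79, -0.11 and -1.60. The medians rest on 20, 17, 4 and 3 genes, several of them neighbours on a chromosome, and no test of a difference between families was made. Of these, 4 Cyp, 1 Gst, 0 Ugt and 2 Sult genes passed the filter only through Trp53+/+ libraries. Such genes favour negative medians against Trp53+/+, and the Sult value of -1.02 in both mutants was that of 1 of them, Sult1b1.

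The 2 Trp53+/+ lines also differed from each other in these genes. In 38 of the 44 genes (86.4%) the level was higher in Trp53+/+ replicate 2, against 48.2% of all genes tested, with a median difference of 0.20 on the log2 scale. In Trp53flox/flox 24 of the 44 were higher in replicate 2, and in Trp53R270H/R270H 18 were. The largest differences within Trp53+/+ were in genes already named, such as Cyp2c66 (3.88 and 9.88 rpkm) and Cyp2b10 (6.39 and 13.7 rpkm).

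**Figure D5:**
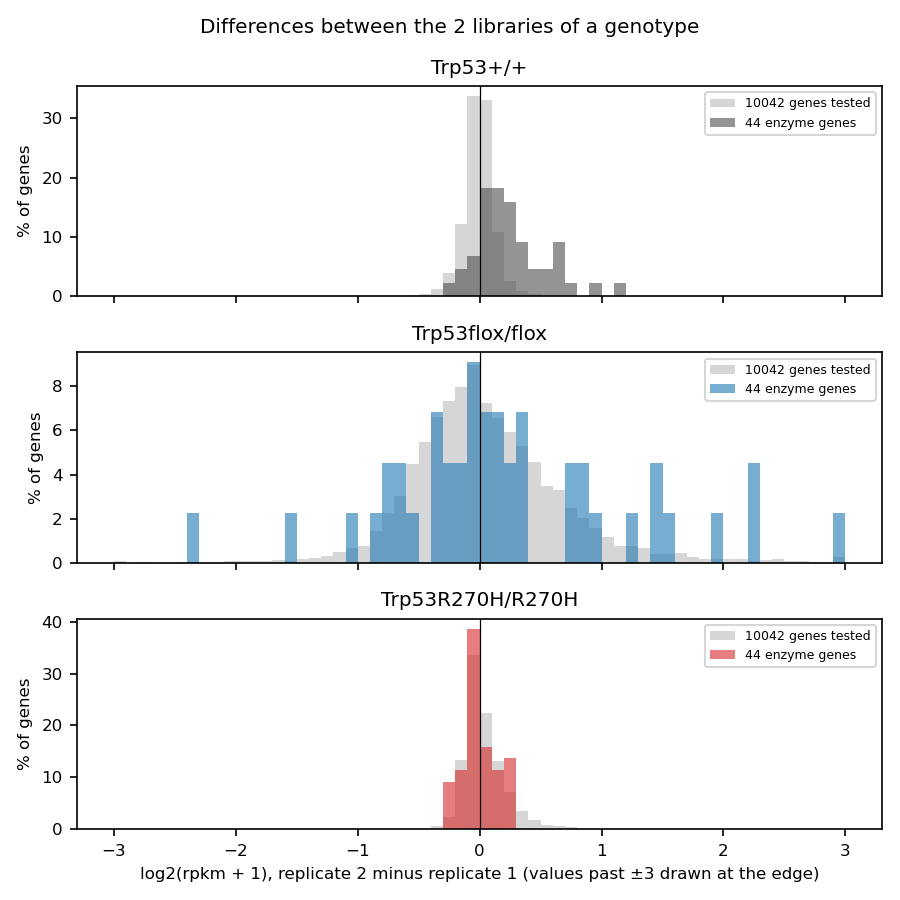
Difference in log2(rpkm+1) between replicates 2 and 1 (x axis) of each genotype, as the percentage of genes per bin (y axis), for the 44 genes (coloured) and all 10042 genes tested (grey). The 44 genes lie to the right of 0 in Trp53+/+, where 38 of 44 were higher in replicate 2, and are spread widely on both sides in Trp53flox/flox.

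The summed levels of markers of differentiated cells were lower in both mutants. The summed level of 9 markers of absorptive enterocytes, cells in which these enzymes are abundant, was 79.7 to 89.9 rpkm in Trp53+/+, 27.1 to 44.01 rpkm in Trp53flox/flox and 37.1 to 45.3 rpkm in Trp53R270H/R270H libraries, so that both mutants lay below Trp53+/+ and overlapped each other. Apoa1, Apoa4, Lct and Sis were listed at 1 rpkm in all libraries, and 5 passed the filter, of which Alpi was called lower in Trp53flox/flox and none was called in Trp53R270H/R270H. Alpi and Fabp1 were higher in Trp53R270H/R270H than in Trp53flox/flox, and they did not follow the sum in Trp53R270H/R270H. Fabp1 stood at 3.81 and 4.77 rpkm in Trp53+/+ and 8.87 and 4.39 rpkm in Trp53R270H/R270H, and Alpi at 4.86 and 10.7 and at 8.80 and 4.35 rpkm. The 5 Paneth cell markers summed to 1338 to 1690 rpkm in Trp53+/+, 561 to 573 rpkm in Trp53flox/flox and 386 to 421 rpkm in Trp53R270H/R270H, with 4 and 5 of 5 called lower. The 6 goblet markers summed to 352 to 415, 147 to 179 and 177 to 180 rpkm in the same order, summed over 7 rows since Muc2 has 2, both between 1.0 and 1.42 rpkm in all libraries, and 3 and 2 called lower. Of all genes tested, 6.9% were called lower in Trp53flox/flox and 6.36% in Trp53R270H/R270H. The part of these differentiated cells in the levels of the enzymes was not tested.

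Other steps of the same pathway were followed with gene lists. Of 29 other functionalising enzymes, such as epoxide hydrolases, carboxylesterases and reductases, 17 passed the filter, and 9 were called lower in each mutant against Trp53+/+ and none higher. They were Ephx1, Ephx2, Ces2a, Ces2c, Ces2e, Nqo1, Akr1c14, Cbr1 and Cbr3 in both cases. Of all genes tested, 6.36% were called lower in Trp53R270H/R270H and 6.9% in Trp53flox/flox, shares that also apply to the lists below. How many listed genes passed the filter only through Trp53+/+ libraries was not counted. Ephx1, the microsomal epoxide hydrolase, stood at 145 and 180 rpkm in Trp53+/+, 6.93 and 9.19 rpkm in Trp53flox/flox, and 13.3 and 14.2 rpkm in Trp53R270H/R270H libraries. Nqo1, a quinone reductase, stood at 18.8 and 30.3, then 4.13 and 4.61, then 8.62 and 7.81 rpkm. In both genes the mutants lay far below Trp53+/+, and Trp53R270H/R270H lay above Trp53flox/flox.

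Of 18 receptors and regulators of these enzymes, 13 passed the filter and 1 was called lower in each mutant. It was Nfe2l2, the gene of the antioxidant response factor NRF2, with 142 and 159 rpkm in Trp53+/+, 52.9 and 77.9 rpkm in Trp53flox/flox, and 53.3 and 47.8 rpkm in Trp53R270H/R270H libraries. Its log2 fold changes were -1.21±0.20 (adjusted p=0.0298) and -1.55±0.20 (adjusted p=0.0148). Keap1, which holds NRF2 back, was lower in Trp53R270H/R270H than in Trp53flox/flox and not called otherwise. The receptors Ahr and Nr1i2 passed the filter and were not called. Of 10 genes that supply electrons or haem to the P450 enzymes, 9 passed; Fdxr was called lower in Trp53R270H/R270H against Trp53+/+ and none was called in Trp53flox/flox. Between the mutants, Cyb5b was higher and Por, Fdx1 and Alas1 were lower in Trp53R270H/R270H.

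Of 24 other conjugating enzymes and genes of cofactor supply, 19 passed. Papss1, which makes the sulfate donor, rose in Trp53R270H/R270H, Tpmt fell in both mutants, Gclc, the first enzyme of glutathione synthesis, fell in Trp53flox/flox, and Papss2 was higher in Trp53R270H/R270H than in Trp53flox/flox. Of 19 transporters, 10 passed. Abcc2, which exports glutathione and glucuronide conjugates, stood at 32.7 and 35.3 rpkm in Trp53+/+, 2.89 and 1.51 rpkm in Trp53flox/flox, and 37.1 and 31.5 rpkm in Trp53R270H/R270H libraries. Both Trp53flox/flox values lay far below the other 4, with log2 fold changes of -3.48±0.23 (adjusted p=0.00423) against Trp53+/+ and 3.49±0.23 (adjusted p=0.00245) for Trp53R270H/R270H against Trp53flox/flox. Abcc4 fell in Trp53R270H/R270H, and Abcc5 was higher in Trp53R270H/R270H than in Trp53flox/flox.

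Promoter windows of RefSeq, from 250 bases before to 50 bases after the start on GRCm38.p6, were found for 41 of the 44 genes. TGACNNNGC occurred on either strand in 7 of the 41 (17.1%), against 12.4% of all promoters and 16.9% of the genes tested. GCGTG occurred in 15 (36.6%), against 32.4% and 57.9%, and TATAAA in 9 (22.0%), against 13.6% and 8.64%. The 41 genes had 52 windows, and a match in any window of a gene counted for it. The shares of all promoters count single windows, so they are not like for like with those of the 41 genes. TGACNNNGC and GCGTG can overlap, as they do before Gstm5. The genes with TGACNNNGC were Cyp2c65, Cyp2c66, Cyp2j6, Cyp4f14, Gsta3, Gstm5 and Gstm7.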

How the data were processed

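Poly(A) RNA of the 6 organoid lines was sequenced with a stranded kit. The deposited rpkm values were made by the authors in StrandNGS from reads aligned to mm10. Its version and annotation are not given in the sources used here. The lowest value in the table is 1 rpkm, so values below 1 are unknown.

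The 10042 genes that reached 4 rpkm in any library were fitted with limma 3.58.1 (R 4.3.3, lmFit and eBayes with trend) on log2(rpkm+1), over all 6 libraries, with genotype as the only term, two-sided tests and Benjamini-Hochberg adjustment. Fold changes on this scale understate the change of low genes. Tables used Python 3.11.15 and pandas 2.3.3. The code was tested on simulated data. Members, lists and tests were chosen with earlier results of these data known. Genes were named when called in at least 1 comparison (up to 10 per family), when among the 3 most abundant of a family, when their call changed under an alternative, or when next to the filter. The rest were given by range and count. One gene of a marker list is not reported here and was left out of its sum and counts. Genes were placed on GRCm38 by Entrez number with RefSeq. Shared 50-base words were counted in GENCODE M21 transcripts, and depth was estimated from the steps of low rpkm values. Same-numbered libraries come from different mice.

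Alternatives were pseudocounts of 0.1 and 0, 2 other filters, median-of-ratios and upper-quartile scaling, no trend, weights for each genotype, only the 2 genotypes compared, 2 replicate blocks, each library left out, chromosome medians removed, and genes that passed the filter through Trp53+/+ alone left out, the last 2 chosen after seeing the data.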

Additional observations from a re-analysis of the deposited data

How the results depend on the processing

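None of the 47 calls reported changed direction under the 18 alternative fits, but only 1 of the 47 was kept under all of them. Some genes without a reported call, such as Cyp2c68 and Cyp3a13, changed direction against Trp53+/+ with the Trp53flox/flox line that was left out. The order of the counts here is higher and lower in Trp53R270H/R270H than in Trp53+/+, higher and lower in Trp53flox/flox than in Trp53+/+, and higher and lower in Trp53R270H/R270H than in Trp53flox/flox. They were 4, 10, 0, 20, 11 and 2 as reported, and stayed within 1.5 times of these under the other pseudocounts, filters and scalings, without the trend and with chromosome medians removed. With weights for each genotype the counts were 6, 30, 0, 4, 7 and 0, against 31.9%, 27.8%, 0.349%, 1.15%, 3.75% and 1.56% of all genes. Without the 7 genes that passed the filter through Trp53+/+ alone, left out after seeing the data, 6 genes were lower in Trp53R270H/R270H than in Trp53+/+. With only the 2 genotypes compared, the counts were 7, 28, 0, 1, 6 and 0, against 31.2%, 25.7%, 0.0896%, 0.378%, 2.56% and 1.2% of all genes. Leaving out 1 library at a time gave 0 to 7, 0 to 28, 0 to 3, 1 to 35, 1 to 19 and 0 to 8; an arm left with 1 library was assumed to vary like the others. With a replicate block the counts were 1, 7, 0, 11, 8 and 1, against 2.54%, 2.94%, 0.707%, 2.08%, 6.65% and 4.86% of all genes. In that fit 27 of 47 calls were kept, and with the Trp53R270H/R270H numbers exchanged 40 were kept. Same-numbered deviations correlated at 0.12, -0.29 and -0.20 between the genotypes, so the numbers do not pair the libraries. The cause of these differences was not tested. Values under 1 rpkm are unknown, which limits 12 genes.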
